A study of Saccharomyces cerevisiae with 18 samples.

Results

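This account covers 10 yeast genes for enzymes that remove superoxide and peroxides or that keep thiols reduced: SOD1, SOD2, TSA1, TSA2, PRX1, CCP1, GPX1, TRX2, TRR1 and GRX2. They were chosen by name from the antioxidant genes of Saccharomyces cerevisiae, and 1 probe set that stands for that gene alone was found on the array for each of the 10. All 10 passed the filter on low values, as did 5545 of the 5656 genes measured. By textbook location, 3 of them act in mitochondria (SOD2, CCP1 and PRX1), 5 mainly in the cytosol (SOD1, TSA1, TSA2, TRX2 and TRR1) and 2 in several or other places (GPX1 and GRX2).

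The study asked how the dosage of FAR1, the gene of a cyclin-dependent kinase inhibitor of the pheromone response, alters transcription on each of 2 carbon sources. Total RNA was measured on 18 Affymetrix S98 arrays, in 6 groups of 3 independent cultures. The wild type was W303-1A, a MATa strain with the alleles ade2-1 and his3-11, the double leu2 allele with mutations 3 and 112, and the alleles trp1-1, ura3-1 and can1-100, and this background is common to all groups. The second strain carried far1::his3 in that background, and the third carried the plasmid pTet-FAR1-15Myc, which overexpresses Myc-tagged FAR1. Cells were harvested in exponential growth in synthetic complete medium, on either glucose or ethanol. A single deletion strain and a single plasmid were used, so a trait of that strain or plasmid other than FAR1 dosage cannot be told apart from FAR1 dosage. The sources used here give no number of clones and no inducer dose.

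Superoxide leaks mainly from the respiratory chain, and superoxide dismutases turn it into hydrogen peroxide. Peroxidases then reduce the peroxide to water with electrons from thioredoxin, glutathione or cytochrome c. Thioredoxin is recharged by thioredoxin reductase with NADPH, and glutaredoxins use glutathione. On glucose, budding yeast mostly ferments and represses many genes of respiration, whereas ethanol can be used only by respiration.

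Intensities are given below after quantile normalisation, in arbitrary units of the array, in the order of the 3 arrays of a group. They rank a gene's own samples and not 1 gene against another, since probe sets differ in brightness. The median deposited intensity of an array ranged from 8.5 to 23.8. FAR1 (YJL157C) read 28.2 to 42.7 on the wild type arrays in glucose and 17.8 to 27.3 on those in ethanol. In glucose it read 4.5 to 6.2 on the deletion arrays and 674 to 1084 on the overexpression arrays. In ethanol, array 3 labelled far1 deletion read 3527 and array 3 labelled FAR1 overexpression read 3.2, against the labels, while the other arrays of those groups read 3.7 to 5.0 and 2955 on each. Groups are therefore called by their labels, and the ethanol results of the 10 genes in the FAR1 strains are also given without this pair. The actin 3′ to 5′ control ratio was 8.06 and 8.87 (log2) on arrays 1 and 3 labelled FAR1 overexpression in glucose, and 0.32 to 1.04 on the other 16 arrays. The BioDn control 5′ to 3′ ratio was 0.169 to 0.231 on the 6 wild type arrays and deletion array 1 in glucose, and 0.369 to 0.575 on the rest, so the strain comparisons largely coincide with it. The labels call the strains MATa, but the a-cell genes STE2, AGA2 and ASG7 read 0.1 to 2.5 in the deposited values, while the alpha-cell genes MF(ALPHA)1 and STE3 read 446 to 2399 and 38.4 to 136 on all 18 arrays.

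Ethanol against glucose split the 10 genes. SOD2, PRX1, GPX1 and GRX2 rose in all 3, TRR1 fell in all 3, TSA1 rose modestly in all 3, and CCP1 rose in the wild type and the overexpression strain. SOD1, TSA2 and TRX2 passed the test in no strain. In the wild type 6 of 10 members were higher and 1 lower at an adjusted p under 0.05 (limma, Benjamini-Hochberg over all genes tested), where 22.4% of all genes were higher and 21% lower. In the deletion strain 5 were higher and 1 lower, against 21.7% and 21.2% of all genes. In the overexpression strain 6 were higher and 1 lower, against 17.3% and 22.9%. The median log2 change of the 10 members was 0.52, 0.57 and 0.60 in the 3 strains, and that of all genes was 0.00, -0.01 and -0.09.

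**Figure D1:**
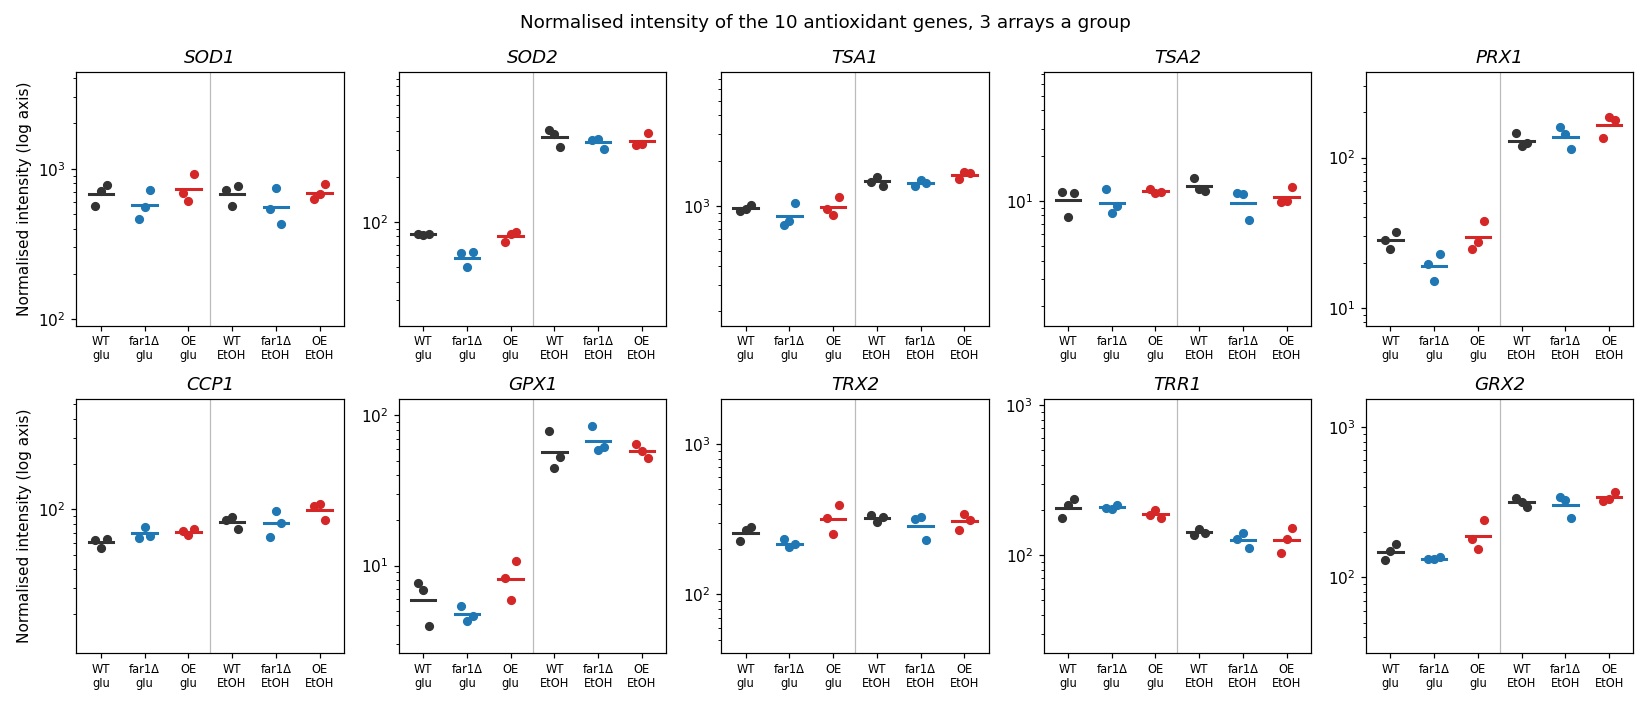
Normalised intensity (log axis, with the same number of log units in every panel) of each of the 10 genes on the 18 arrays. Points are arrays, bars are geometric means of 3 arrays, and WT, far1Δ and OE are the labelled strains in glucose (glu) or ethanol (EtOH). SOD2, PRX1, GPX1 and GRX2 separate the 9 ethanol arrays from the 9 glucose arrays, whereas SOD1 and TSA2 do not.

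The superoxide dismutases behaved unequally. SOD2 (YHR008C), the manganese enzyme of the mitochondrial matrix, read 83.5, 82.3 and 83.3 in wild type glucose and 408, 383 and 314 in wild type ethanol. Deletion arrays read 61.9, 49.7 and 63.0 in glucose and 353, 356 and 308 in ethanol. The overexpression strain read 73.1, 83.5 and 85.4 in glucose and 326, 332 and 389 in ethanol. Every ethanol array lay above every glucose array. The rise was 4.39-fold in the wild type (log2 2.14 ± 0.13 SE, n = 3 arrays a group, limma adjusted p = 4.95e-10). With the deletion it was 5.81-fold (limma adjusted p = 3.89e-11) and with the overexpression 4.31-fold (limma adjusted p = 8.95e-10). It exceeded the change of 96.2% to 97.2% of all genes tested.

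SOD1 (YJR104C), the copper-zinc enzyme found mostly in the cytosol, read 563, 709 and 774 in wild type glucose and 726, 563 and 770 in wild type ethanol. The groups overlapped in every strain, and the 9 ethanol arrays spanned 428 to 787 against 466 to 928 on the 9 glucose arrays. Its change was 0.01, -0.04 and -0.07 in the 3 strains (SE 0.21 each, limma adjusted p = 0.819 to 0.978), with 95% intervals that together ran from 0.695-fold to 1.38-fold. With array medians centred instead, SOD1 changed by log2 values of -0.32, -0.53 and -0.49 in the 3 strains, or -0.25, -0.42 and -0.31 relative to the median of all genes. Only the value of the deletion strain passed the test (limma adjusted p = 0.243, 0.048 and 0.0697). CCS1, the copper chaperone that loads SOD1 and a gene singled out after its values were seen in the wild type, fell in all 3 strains by log2 values of -1.53, -1.65 and -1.36 (limma adjusted p = 6.68e-07 to 8.43e-06).

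The peroxiredoxins, thiol peroxidases that draw on thioredoxin, differed among themselves. PRX1 (YBL064C), the mitochondrial 1-Cys form, read 28.2, 24.6 and 32.1 in wild type glucose and 145, 119 and 125 in wild type ethanol. The deletion arrays read 19.5, 15.1 and 22.9 in glucose and 159, 143 and 113 in ethanol. The overexpression strain read 24.6, 27.2 and 37.8 in glucose and 134, 187 and 179 in ethanol. No ethanol array overlapped a glucose array. The rise was 4.55-fold (log2 2.19 ± 0.20 SE, limma adjusted p = 6.43e-08), 7.13-fold (2.83 ± 0.20, limma adjusted p = 1.81e-09) and 5.54-fold (2.47 ± 0.20, limma adjusted p = 1.8e-08) in the wild type, the deletion strain and the overexpression strain, in that order.

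TSA1 (YML028W), the abundant cytosolic 2-Cys peroxiredoxin, read 919, 955 and 1017 in wild type glucose and 1442, 1564 and 1367 in wild type ethanol. The deletion strain read 743, 799 and 1040 in glucose and 1367, 1484 and 1412 in ethanol, and the overexpression strain 950, 875 and 1147, then 1508, 1675 and 1663. The arrays of the 2 carbon sources did not overlap, and the rises were 1.51-fold, 1.67-fold and 1.64-fold (log2 0.60, 0.74 and 0.71 ± 0.13 SE, limma adjusted p = 0.00143, 0.000211 and 0.000338). This rise depended on the scaling of the arrays. With array medians centred, TSA1 changed by -0.05, -0.16 and 0.07 (limma adjusted p = 0.457 to 0.851), and on the deposited scale by 0.69, 0.31 and 0.52, of which only the wild type value passed the test (limma adjusted p = 0.0318). On that scale the median of all genes itself rose by 0.66, 0.36 and 0.27, and TSA1 lay 0.03, -0.05 and 0.24 from it.

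TSA2 (YDR453C), the stress-inducible cytosolic paralog of TSA1, was dim on every array. It read 11.5, 7.8 and 11.4 in wild type glucose and 14.3, 11.9 and 11.6 in wild type ethanol, and over all 18 arrays 7.46 to 14.3. The differences were 0.31, 0.01 and -0.11 (SE 0.21, limma adjusted p = 0.253 to 0.988). On the deposited scale the wild type value was 1.02 (limma adjusted p = 0.0067), or 0.36 above the median of all genes there. TSA1 and TSA2 are close in sequence, and whether their probe sets fully separate them was not tested.

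Among the other peroxidases, GPX1 was dim in glucose and brighter in ethanol, and CCP1 differed by much less. GPX1 (YKL026C), a glutathione peroxidase family member known to be induced by glucose starvation, read 7.7, 6.9 and 3.9 in wild type glucose and 78.2, 44.7 and 52.4 in wild type ethanol. Deletion arrays read 5.4, 4.3 and 4.6 in glucose and 85.3, 58.9 and 61.8 in ethanol. The overexpression strain read 8.3, 5.9 and 10.8 in glucose and 64.1, 58.0 and 51.9 in ethanol. The lowest ethanol array was above the highest glucose array in each strain. The rise was 8.99-fold in the wild type (95% interval 6.17 to 13.1, limma adjusted p = 1.92e-08). It was 13.3-fold with the deletion (9.10 to 19.3, limma adjusted p = 1.89e-09) and 6.84-fold with the overexpression (4.70 to 9.96, limma adjusted p = 1.46e-07). These were the largest fitted folds of the 10 members, but they rest on a glucose baseline not shown to be above background. GPX1 stood at or below the 21.6th percentile of genes on every glucose array and at or above the 65.4th on every ethanol array, so the ethanol arrays largely carried it past the filter. The folds therefore depend on the pseudocount, and with a pseudocount of 2.9 they were log2 2.74, 3.20 and 2.45. These were the lowest values over 16 alternative settings, and the highest, 3.73, 4.09 and 3.31, came from the deposited scale.

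CCP1 (YKR066C), the cytochrome c peroxidase of the mitochondrial intermembrane space, read 62.2, 55.1 and 63.4 in wild type glucose and 84.3, 88.7 and 73.6 in wild type ethanol. The overexpression strain read 72.0, 67.8 and 73.4 in glucose and 105, 108 and 85.3 in ethanol. These groups did not overlap, and the rises were 1.36-fold (log2 0.44 ± 0.15 SE, limma adjusted p = 0.0221) and 1.39-fold (0.48 ± 0.15, limma adjusted p = 0.0161). The deletion strain read 64.4, 76.7 and 66.6 in glucose and 65.5, 98.1 and 81.1 in ethanol, which overlapped (0.22 ± 0.15, limma adjusted p = 0.25). The wild type call was lost without any of 3 arrays, namely array 2 in glucose and arrays 1 and 2 in ethanol, where the value was 0.38, 0.43 and 0.39 (limma adjusted p = 0.0624 to 0.0845). The overexpression call was lost without ethanol array 1 or 2 (0.44 and 0.41, limma adjusted p = 0.0566 and 0.0665), and without the arrays lacking actin 5′ signal (0.54, limma adjusted p = 0.0919). It was also lost on the deposited scale (0.74, limma adjusted p = 0.0659) and with array medians centred (0.29, limma adjusted p = 0.116).

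**Figure D2:**
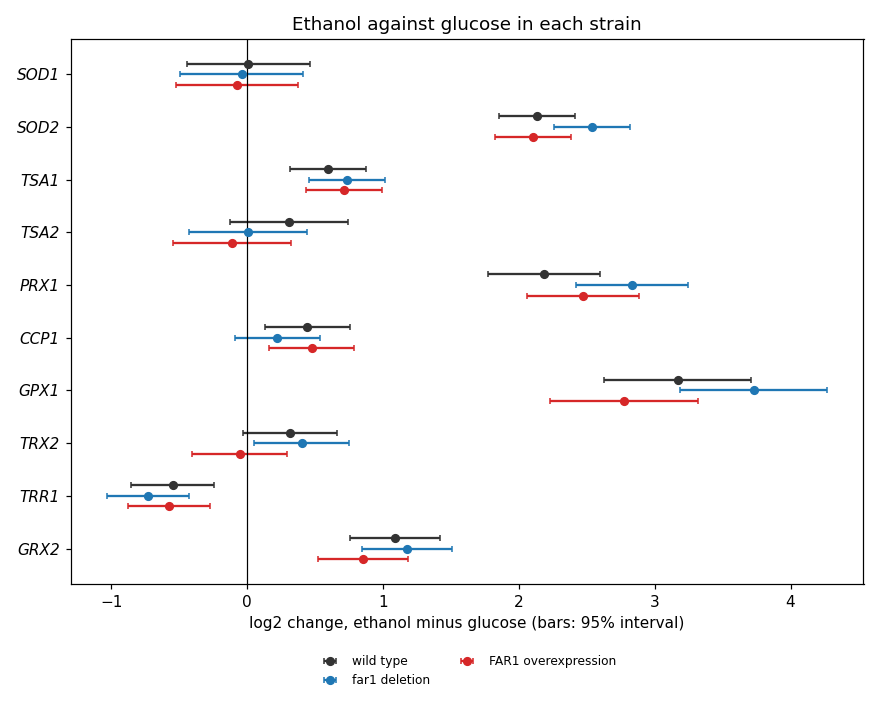
Log2 change between ethanol and glucose for each gene (x axis, log2 units) in the 3 labelled strains, with the limma estimate as a point and its 95% interval as a bar, n = 3 arrays a group. GPX1, PRX1 and SOD2 lie above 2 in every strain, GRX2 lies near 1, and TRR1 lies below 0.

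In the thioredoxin and glutaredoxin systems, reductase and glutaredoxin moved in opposite directions. TRR1 (YDR353W), the cytosolic thioredoxin reductase, read 176, 216 and 236 in wild type glucose and 136, 149 and 141 in wild type ethanol. Deletion arrays read 207, 204 and 217, then 127, 141 and 112, and the overexpression strain 186, 201 and 177, then 104, 127 and 152. All ethanol arrays lay below all glucose arrays. TRR1 fell by 0.55, 0.73 and 0.57 on the log2 scale (SE 0.14, limma adjusted p = 0.00503, 0.000508 and 0.00395). On the deposited scale it read -0.11, -0.64 and -0.45 and passed the test in no strain (limma adjusted p = 0.0837 to 0.766), and relative to the median of all genes there it lay at -0.77 in the wild type and -0.72 in the overexpression strain. TRR2, the mitochondrial thioredoxin reductase and a gene singled out after its values were seen, rose by 0.78 in the wild type (limma adjusted p = 0.0162) and by 0.90 with the deletion (limma adjusted p = 0.00651). Its value with the overexpression was 0.60 (limma adjusted p = 0.0617).

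TRX2 (YGR209C), a cytosolic thioredoxin, read 226, 269 and 281 in wild type glucose and 336, 300.5 and 327 in wild type ethanol. The deletion strain read 232.5, 205 and 215, then 317, 326 and 228, and the overexpression strain 323, 253 and 394, then 269, 340 and 314. The groups were apart in the wild type and overlapped in both FAR1 strains. The differences were 0.32, 0.40 and -0.06 (SE 0.17, limma adjusted p = 0.134, 0.0596 and 0.825). Without the pair whose FAR1 signal opposes its label, TRX2 was called higher in the deletion strain (0.57, limma adjusted p = 0.0128). It was also called there without deletion array 3 in ethanol alone (0.57, 0.011) and without the arrays lacking actin 5′ signal (0.41, 0.0359). With array medians centred TRX2 was called lower in the overexpression strain (-0.41, limma adjusted p = 0.0497). On the deposited scale it was called higher in the wild type (0.71, limma adjusted p = 0.0299), or 0.05 above the median of all genes there. TRX2 has a close paralog, TRX1, whose differences were 0.30, 0.14 and -0.24 (limma adjusted p = 0.171 to 0.554).

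GRX2 (YDR513W), a glutaredoxin with cytosolic and mitochondrial forms, read 131, 149 and 168 in wild type glucose and 340, 318 and 293 in wild type ethanol. The deletion strain read 133, 132 and 136, then 341, 328 and 247, and the overexpression strain 180, 154 and 241, then 321, 334 and 368. No glucose array reached an ethanol array. The rise was 2.13-fold, 2.26-fold and 1.80-fold (log2 1.09, 1.18 and 0.85 ± 0.16 SE, limma adjusted p = 2.22e-05, 1e-05 and 0.000327). SOD2, PRX1, GPX1 and GRX2 were called higher in every strain under all 16 alternatives that bear on each of these comparisons.

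Without the pair opposing its FAR1 label, the log2 changes with the deletion were 2.63 for SOD2, 3.00 for PRX1, 3.79 for GPX1, 1.33 for GRX2, 0.77 for TSA1 and -0.65 for TRR1 (limma adjusted p = 5.12e-10 to 0.00142). With the overexpression they were 2.04, 2.43, 2.85, 0.80, 0.71 and -0.72 in the same order (limma adjusted p = 1.45e-08 to 0.00157). CCP1 read 0.22 with the deletion (limma adjusted p = 0.316) and 0.59 with the overexpression (limma adjusted p = 0.0086). SOD1 and TSA2 were not called in either strain (limma adjusted p = 0.462 to 0.639). TRX2, called with the deletion as given above, read -0.07 with the overexpression (limma adjusted p = 0.766).

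**Figure D3:**
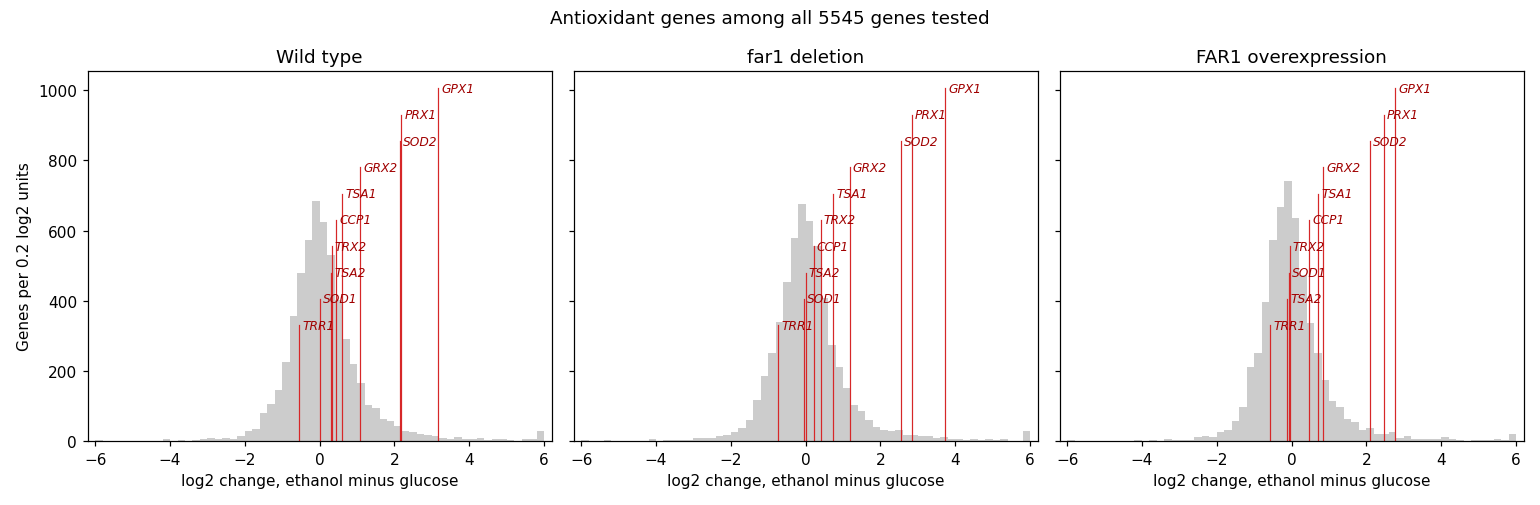
Histogram of the log2 change between ethanol and glucose (x axis, log2 units, values beyond 6 counted in the outermost bins) over the 5545 genes tested, in bins of 0.2, with the 10 genes as labelled lines whose height has no meaning. GPX1, PRX1 and SOD2 lie in the right tail in each strain, above 96.2% to 98.7% of genes, and the others lie within the body or its shoulders.

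Mitochondrial and cytosolic forms were then set against each other within each array, which removes any constant scaling of that array. Only the change of a ratio is read here, since the level compares different probe sets. The SOD2 to SOD1 ratio (log2) lay between -3.52 and -2.75 on the 9 glucose arrays and between -1.29 and -0.48 on the 9 ethanol arrays. It rose by 2.29, or 4.91-fold, and the groups did not overlap (exact stratified permutation test over strains, two-sided p = 0.00025, the smallest it can give, adjusted p = 0.00113 over 9 tests). The PRX1 to TSA1 ratio lay between -5.69 and -4.91 on glucose and between -3.71 and -3.10 on ethanol. It rose by 1.81, or 3.52-fold, with the same exact permutation p and adjusted p. On the deposited scale these changes were 2.47 and 2.37.

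The TSA2 to TSA1 ratio overlapped between -6.86 and -5.91 on glucose and -7.49 and -6.62 on ethanol. It fell by 0.62 (exact permutation p = 0.001, adjusted p = 0.003) after quantile normalisation, but was 0.12 higher on the deposited scale (exact permutation, adjusted p = 0.722), so it has no settled direction. None of the 3 ratios differed detectably between a FAR1 strain and the wild type over both carbon sources. The differences ran from -0.13 to 0.11 (exact permutation, adjusted p = 0.623 to 0.795 over the 9 tests), in tests whose smallest possible p was 0.005. Without the pair opposing its label they ran from -0.15 to 0.10 (exact permutation, adjusted p = 0.675 to 0.995), and the changes between carbon sources were 2.28, 1.85 and -0.60.

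**Figure D4:**
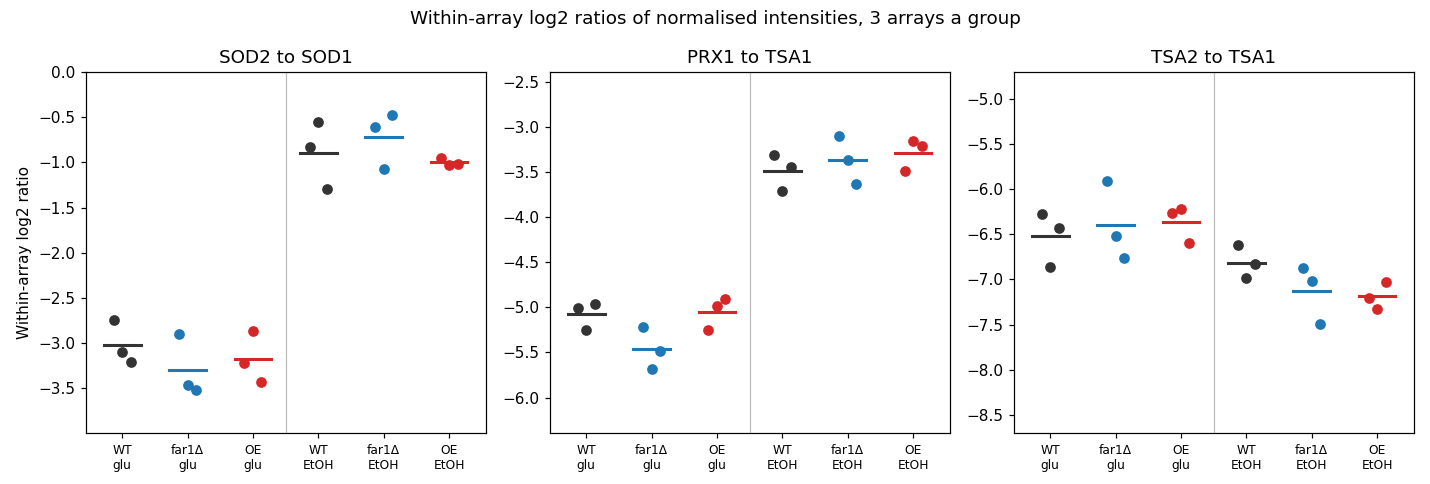
Within-array log2 ratio of normalised intensities (y axis, log2 units, same span in each panel) for SOD2 to SOD1, PRX1 to TSA1 and TSA2 to TSA1. Points are arrays and bars are means of 3 arrays of a labelled strain and carbon source. SOD2 to SOD1 and PRX1 to TSA1 separate the 9 ethanol from the 9 glucose arrays, and TSA2 to TSA1 overlaps.

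The genes called between carbon sources in every strain were ordered across the 6 groups by carbon source before strain, which that choice of genes favours. Geometric group means spanned 13.3-fold for GPX1, 8.55-fold for PRX1, 6.29-fold for SOD2 and 2.54-fold for GRX2. They spanned 1.89-fold for TSA1, 1.66-fold for TRR1, 1.64-fold for CCP1, 1.48-fold for TRX2, 1.31-fold for SOD1 and 1.28-fold for TSA2. For SOD2, PRX1, GPX1, GRX2, TSA1 and TRR1 the 3 means of one carbon source all lay on one side of those of the other, with a gap between arrays at that step. The share of all genes with such a gap was not counted, while 2404 of 5545 genes were called between carbon sources in the wild type (limma). Within the ethanol side of those 6 genes, each pair of neighbouring groups overlapped. Within the glucose side, neighbours also overlapped, with the exception of the deletion strain, which lay below its next neighbour without overlap for SOD2 and PRX1. For SOD1, TSA2 and TRX2 each of the 5 neighbouring pairs overlapped.

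Against the wild type, none of the 10 members passed the test in either FAR1 strain on either carbon source (limma). Of all genes, 1.59% (deletion) and 7.27% (overexpression) were called in glucose, and 0.0721% and 0.397% in ethanol. At an unadjusted p under 0.05 there were 2 of 10 members and 777 of 5545 genes for the deletion in glucose, and 1 member and 1265 genes for the overexpression. In ethanol there were 0 members for either strain, and 379 and 605 genes. Both FAR1 strains were compared with the same wild type arrays.

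The glucose values that lay farthest from the wild type were the mitochondrial SOD2 and PRX1 in the deletion strain. SOD2 read 49.7 to 63.0 there against 82.3 to 83.5 in the wild type, and the groups did not overlap (log2 -0.52 ± 0.13 SE, 95% interval -0.80 to -0.24, limma adjusted p = 0.0609). It passed the test when the pair opposing its FAR1 label was left out of the fit (-0.52, limma adjusted p = 0.0439), although neither array of that pair is a glucose array. It read -0.09 on the deposited scale (limma adjusted p = 0.807), where the median of all genes was 0.40, and -0.42 with the BioDn split as a block (limma adjusted p = 0.416). PRX1 read 15.1 to 22.9 against 24.6 to 32.1, also without overlap (-0.56 ± 0.20, limma adjusted p = 0.188). CCP1, the other mitochondrial member, went the other way, at 64.4 to 76.7 against 55.1 to 63.4, also without overlap (0.20, limma adjusted p = 0.601). With the overexpression in glucose CCP1 read 67.8 to 73.4, again above the wild type without overlap (0.24, limma adjusted p = 0.366). The share of all genes whose groups did not overlap was not counted.

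In the overexpression strain in glucose the values farthest from the wild type were GPX1 at 0.42 (limma adjusted p = 0.358), GRX2 at 0.34 (limma adjusted p = 0.205) and TRX2 at 0.31 (limma adjusted p = 0.285). For each of these array 2, with ordinary actin signal, was the lowest of its group. Without arrays 1 and 3, which lack actin 5′ signal, the same differences were -0.01, 0.05 and -0.03, with the 1 array left assumed to vary like the other groups. The part of RNA quality in these values was not tested. GRX2 passed the test on the deposited scale (0.87, limma adjusted p = 0.0238), where the median of all genes was 0.49.

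In ethanol the differences of the 10 members ran from -0.35 (TSA2, deletion strain) to 0.35 (PRX1, overexpression strain), with limma adjusted p = 0.541 to 1.00. Without the pair opposing its label the TSA2 value was -0.17 (limma adjusted p = 1.00) and the PRX1 value 0.29 (limma adjusted p = 0.60). The 10 members then ran from -0.33 (TSA2) to 0.38 (CCP1), both with the overexpression, and none was called (limma adjusted p = 0.30 to 1.00). The 95% intervals were widest for GPX1, from -0.29 to 0.79 with the deletion and from -0.52 to 0.57 with the overexpression.

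The change of each strain's effect between carbon sources was tested directly. No member was called for the deletion strain, where 0% of all genes were called (466 of 5545 genes and 2 of 10 members at an unadjusted p under 0.05, limma). No member was called for the overexpression strain, where 0.18% of all genes were called (758 genes and 0 members at an unadjusted p under 0.05). The values farthest from 0 were PRX1 at 0.65 (limma adjusted p = 0.573) and GPX1 at 0.56 (limma adjusted p = 0.747) for the deletion, and TSA2 at -0.42 (limma adjusted p = 0.549) for the overexpression. Without the pair opposing its label these were 0.79, 0.62 and -0.52 (limma adjusted p = 0.506, 0.729 and 0.40). So the 13.3-fold rise of GPX1 in the deletion strain was not shown to differ from the 8.99-fold rise in the wild type.

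**Figure D5:**
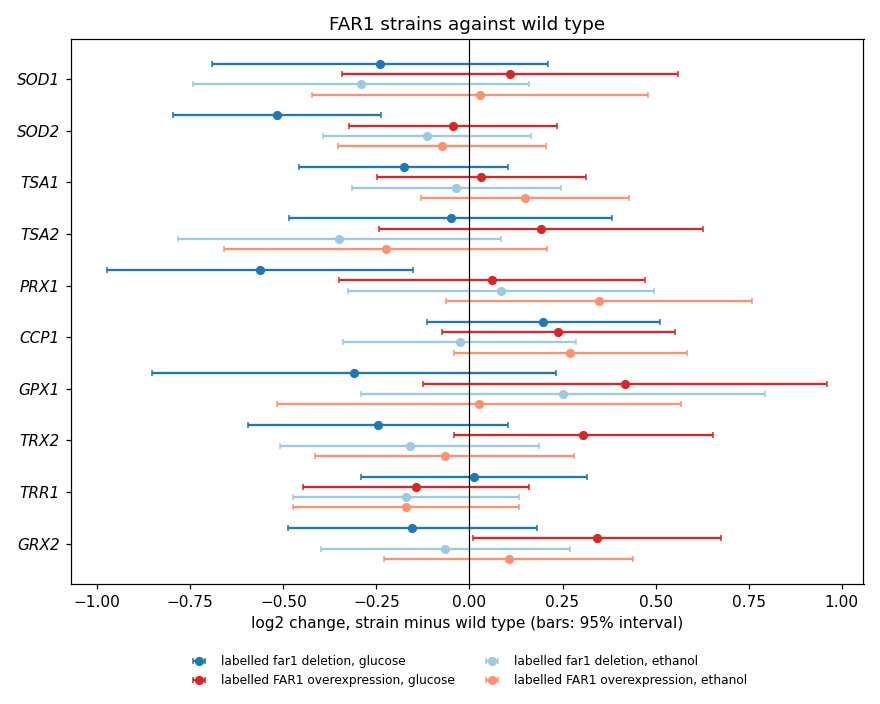
Log2 difference of each FAR1 strain from the wild type in the same carbon source (x axis, log2 units) for the 10 genes, with the limma estimate as a point and its 95% interval as a bar, n = 3 arrays a group, named by label. The estimates lie between -0.56 and 0.42, and the intervals of SOD2 and PRX1 for the deletion in glucose lie below 0 and that of GRX2 for the overexpression in glucose lies above 0 (0.01 to 0.68), although no value passes after adjustment over all genes.

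The wider antioxidant and thiol redox genes were described from a list of 36 further genes, all of which were tested. Between ethanol and glucose, the wild type had 9 higher and 8 lower, the deletion strain 10 higher and 10 lower, and the overexpression strain 8 higher and 8 lower. That is 17, 20 and 16 of 36 called, near the share of all genes called in either direction, which was 2404, 2382 and 2226 of 5545. Their median changes were 0.13, 0.06 and -0.06. CTA1, the peroxisomal catalase, changed most in each strain. Its geometric mean was 1.16, 2.42 and 3.46 in glucose and 204, 198 and 181 in ethanol (log2 7.03, 6.14 and 5.55, limma adjusted p = 5.33e-11 to 2.12e-09). The glucose values lie near the floor of the arrays, so these folds depend on the pseudocount. The cytosolic catalase gene CTT1, named after its values were seen, read 2.14 to 6.67 on all arrays, also near the floor. CTT1 was called in no strain (limma adjusted p = 0.556 to 0.87), which at such readings cannot show that it did not change.

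Peroxiredoxins and their partners outside the 10 moved both ways. SRX1, the sulfiredoxin that repairs overoxidised peroxiredoxin, rose by 2.68, 2.18 and 1.41 (limma adjusted p = 8.96e-05, 0.000689 and 0.017). SRX1 read 3.3, 1.0 and 5.4 in wild type glucose, near the floor, so the size of its change depends on the pseudocount. With a pseudocount of 2.9 it was still called in each strain. AHP1, a cytosolic alkyl hydroperoxide peroxiredoxin, fell from a geometric mean of 1138 to 336 in the wild type, by 1.76 on the log2 scale (limma adjusted p = 0.000804), and by 2.27 and 2.50 in the other strains. AHP1 thus moved opposite to PRX1. TRX3, the mitochondrial thioredoxin, rose by 1.79, 0.92 and 0.76 (limma adjusted p = 5.86e-06, 0.00348 and 0.0137). Without the arrays lacking actin 5′ signal its overexpression value was 0.71 and no longer called (limma adjusted p = 0.156). GPX2, a paralog of GPX1, fell by 1.89, 2.48 and 1.87 (limma adjusted p = 0.0016 to 0.0128) from levels already near the floor, with a geometric mean of 6.03 in wild type glucose, and its overexpression value without those arrays was -1.20 and not called (limma adjusted p = 0.331).

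Genes of NADPH supply and of flavin-dependent reductases completed the named set. OYE3 rose by 1.89, 1.21 and 1.00 on the log2 scale in the 3 strains (limma adjusted p = 4.68e-06 to 0.00272), whereas its paralog OYE2 was lower, at -1.34, -1.59 and -1.52 (limma adjusted p = 7.39e-07 to 5.34e-06). Both encode NADPH-using old yellow enzymes. GND1, a 6-phosphogluconate dehydrogenase that makes NADPH, was also lower, at -1.43, -1.14 and -1.52 (limma adjusted p = 4.16e-05 to 0.000593). YBP1, a partner of the peroxide sensor of the Yap1 pathway, rose by 1.70 in the deletion strain (limma adjusted p = 0.00692), from a mean of 1.36 near the floor. Yap1 and Skn7 are the main peroxide response factors: YAP1 itself was called in no strain (limma adjusted p = 0.203 to 0.88). SKN7 was called lower in the deletion strain alone (limma, adjusted p under 0.05). It read 56.9, 54.7 and 45.9 there in glucose and 32.4, 30.7 and 37.6 in ethanol. That call was not kept on the deposited scale.

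Against the wild type in glucose, the deletion strain had 1 of the 36 called and the overexpression strain 5, where 1.59% and 7.27% of all genes were called. ZWF1, which makes NADPH at the head of the pentose phosphate pathway, read 205, 198 and 229 with the deletion against 90.5, 73.9 and 127 in the wild type (log2 1.15 ± 0.21, limma adjusted p = 0.00969), and 1.11 with the BioDn split as a block, no longer called (limma adjusted p = 0.13). TRX3 read 63.2, 62.6 and 56.1 in the overexpression strain against 22.0 to 22.3 in the wild type (1.43, limma adjusted p = 0.00129). It was still called without the arrays lacking actin 5′ signal (1.48, limma adjusted p = 0.0461). SRX1 (1.52), CTA1 (1.30) and DOT5 (0.58) were also higher and GRX6 lower (-0.78), with limma adjusted p = 0.0113 to 0.0478, and these 4 were not called without those arrays, which leaves 1 array in the group (1.04, 1.26, 0.44 and -0.67, limma adjusted p = 0.297 to 0.668). SRX1 and CTA1, both near the floor in wild type glucose, were also not called without the pair opposing its FAR1 label or with a pseudocount of 2.9. Of the 5 genes, TRX3 alone stayed called with the BioDn split as a block, and likewise with only the groups compared. Some of these genes lay on the same side of the wild type in the other FAR1 strain, without overlap but not called. The share of all genes without such overlap was not counted, and both strains share the wild type arrays. ZWF1 read 158, 135 and 148 with the overexpression. With the deletion TRX3 read 51.0, 42.4 and 26.2, and GRX6 58.0, 48.6 and 63.4 against 101, 89.5 and 78.7 in the wild type. SRX1, CTA1 and DOT5 overlapped the wild type with the deletion. None of the 36 was called against the wild type in ethanol or in the tests of a changed effect (limma). At an unadjusted p under 0.05 there were 4 of 36 in ethanol for each strain, against 379 and 605 of 5545 genes, and 2 and 8 for the changed effects, against 466 and 758 genes.

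The 3 most like patterns were listed for the 4 members with the widest range of group means, by Pearson's r over the 18 arrays on the log2 scale. For GPX1 they were POR1 (r = 0.991), MPC3 (0.988) and CRC1 (0.988). For SOD2 they were MSC1 (0.990), CYB2 (0.990) and JEN1 (0.989). For PRX1 the nearest gene was SOD2 itself (0.988), followed by RGI1 (0.986) and YNK1 (0.985). For GRX2 they were YKL091C (0.987), ATP14 (0.984) and STF2 (0.984). The 18 arrays fall into a glucose and an ethanol cluster, so any gene with a large carbon source change scores high on this measure. Likeness in r did not mean likeness in size: in the wild type POR1, the mitochondrial porin, rose by 1.12 and JEN1, the lactate permease, by 8.84 on the log2 scale. Among members, SOD2 correlated with SOD1 at only 0.02, and GPX1 with TRR1 at -0.93.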

How the data were processed

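RNA was measured on 18 Affymetrix S98 arrays, and the deposited values are probe set intensity on a linear scale, 1 per probe set and array. The authors processed the scans with GCOS, per the submitters' processing notes, while its version, signal algorithm and scaling were not given in the sources used here. Of 9335 probe sets, 60 are controls, 6504 have 1 gene, 328 several and 2443 none. For each of 5656 genes the single-gene probe set with the highest mean was used.

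Intensities were taken as log2(intensity + 0.4), the 10th percentile of all values, and quantile normalised. The 5545 genes tested exceeded the 20th percentile on 3 or more arrays. limma 3.58.1 in R 4.3.3 fitted 6 group means (12 residual and 5.60 prior degrees of freedom, intensity trend) and gave 9 comparisons, adjusted by Benjamini-Hochberg with a threshold of 0.05. Log2 changes are on the log2(intensity + 0.4) scale and understate changes of dim genes. The fit and the permutation test were checked on simulated data. The number of arrays limits the precision. Replicates are independent cultures per the labels and were 0.946 to 0.979 correlated across genes.

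Named genes are the 10 members, FAR1, from the list of 36 those called in a comparison (at most 6 by size), and the 3 nearest patterns of 4 members. TRX1, CTT1, TRR2, YAP1, SKN7, GSH1 and GRX8 of that list were named outside this rule. The limit by size left others undescribed that were called between carbon sources in all 3 strains, such as HYR1, GRX1 and GTT1. The members and lists were chosen with earlier results of these data known. Gene names came from the platform's probe table and matched the reference gene table. Coordinates and sequences are not used here. Alternatives were another pseudocount, no filter, the deposited scale, centred medians, mean probe sets, only the groups compared, blocks and arrays left out.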

Additional observations from a re-analysis of the deposited data

How the results depend on the processing

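The calls that gave way were those of TSA1, TRR1, CCP1 and the TSA2 to TSA1 ratio. TRX2, SOD1 and TSA2 gained calls between carbon sources under other settings, as given above, and those of TRX2 went in both directions. With array medians centred, TSA1 turned to -0.047 (wild type) and -0.16 (deletion strain). On the deposited scale 4 members were called between ethanol and glucose in the overexpression strain instead of 7, and 1 instead of 0 for overexpression in glucose. On that scale the calls over all genes in the wild type were 2372 higher and 174 lower instead of 1242 and 1162 (1478 and 376 instead of 1206 and 1176 in the deletion strain, 1115 and 337 instead of 958 and 1268 in the overexpression strain), and with medians centred 1055 and 1331, 1053 and 1491, and 851 and 1637. For deletion against wild type in glucose they were 138 and 1 instead of 68 and 20. The TSA2 to TSA1 ratio turned to 0.12 on the deposited scale, and PRX1 to TSA1 for the deletion read 0.0086 instead of -0.13. Without the pair opposing its FAR1 label, 1 member was called for the deletion in glucose instead of 0, and TSA2 to TSA1 for the deletion read 0.000598 instead of -0.09. Without the arrays lacking actin 5′ signal, SOD2 to SOD1 for the overexpression read 0.025 instead of -0.13. The cause was not tested. Leaving out 1 array at a time gave 6 to 7 members called in each ethanol comparison and 0 in all others, and SOD2 to SOD1 for the deletion ran from -0.15 to 0.039.

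Deviations from the group means correlated at -0.376 to 0.185 (median 0.0003) between same-numbered arrays, above 0.1 in 8 of 45 pairs. Between arrays of other numbers the correlations were -0.232 to 0.312 (median -0.004), above 0.1 in 14 of 90 pairs. Over all genes and with both carbon sources pooled, no pairing by number was seen, although this cannot show that the cultures were unpaired. Single genes did follow the number in glucose. GSH1 read 84.2, 92.4 and 86.6 on array 3 of the wild type, deletion and overexpression strains, against 32.1 to 44.1 on the other glucose arrays. GRX8 read 61.0, 44.7 and 70.4 there, against 12.5 to 20.3. Both were picked after their values were seen, and how many genes do so was not counted. A batch shared by these arrays was not tested. With a replicate block 7, 6 and 7 members were called in the ethanol comparisons and 0 elsewhere, as without it. For the replicate block, the left-out arrays and the left-out pair, the shares of all genes called are not given here. Those member counts show only how far the calls held.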
